A study of Sinocyclocheilus angustiporus and Sinocyclocheilus anophthalmus with 4 samples.

Results

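The retinoid binding proteins are the soluble carriers of vitamin A and its derivatives. They were taken as the rows of the eye tables whose descriptive name holds the phrase retinol binding protein, retinaldehyde binding protein or retinoic acid binding protein, in any case and with or without a hyphen after retinol. The rule uses names and no measured value. It found 10 of 9649 rows. Of these, 2 are secreted carriers, 2 are carriers of retinal inside cells, 3 are carriers of retinol inside cells and 3 bind retinoic acid. The interphotoreceptor retinoid-binding protein (rbp3) carries a different word in its name and is not among the 10 rows. It is given beside them because it is the classical retinoid carrier of photoreceptors. Gene symbols follow zebrafish genes with the same descriptive name.

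Gene expression was measured by RNA sequencing of whole adult eyes from 2 species of Sinocyclocheilus, fish of the carp family: the surface fish Sinocyclocheilus angustiporus and the cavefish Sinocyclocheilus anophthalmus. Their eye libraries are called the surface eye and the cave eye below. The labels name neither a treatment nor a genetic change for either fish, and state that 2 individuals were used per species but not how they entered a library. Each eye is 1 library, so differences between the eyes have no replicate check, and neither a test nor an error between animals is given. Species, instrument and dissection cannot be told apart in this design. Values are RPKM (reads scaled to the length of the transcript and to the mapped reads of the library) as the authors deposited them, and read numbers are unknown. Log2 ratios are those of cavefish over surface fish RPKM, each plus 1, and a log2 ratio of 1 or -1 is the threshold of 2-fold. The median log2 ratio of all rows was -0.27, so a value near 0 on the deposited scale lies above that of most rows. The 2 most abundant rows held 53.2% of the summed RPKM in the surface eye and 62.6% in the cave eye. Sums of RPKM are given on the deposited scale alone. Log2 ratios were therefore also computed with 4 other scalings of the libraries (centring on that median, a trimmed mean, equal totals without the most abundant rows, and quantile normalization), each of which moves ratios of most rows up. The tables hold rows that reach 5 RPKM in at least 1 eye.

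Vision needs a constant supply of the light-sensitive form of retinal. Light turns it into another form inside the photoreceptor, and the visual cycle turns it back, in the pigment epithelium for rods and cones and partly in Mueller glia for cones. Retinoids are poorly soluble in water and reactive, and binding proteins carry them through plasma, between cells and between enzymes inside cells. Retinoic acid, the oxidized derivative, acts on nuclear receptors instead of on opsins, and its own binding proteins regulate its supply to them. In zebrafish the retinaldehyde binding protein has a copy in the pigment epithelium (rlbp1a) and another in Mueller glia (rlbp1b).

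Of the 10 carriers, 2 were at least 2-fold higher in the cave eye, plasma retinol binding protein (rbp4) and cellular retinoic acid binding protein 1a (crabp1a). None was 2-fold lower. Among all 9649 rows, 3.83% were 2-fold higher and 10.1% were 2-fold lower. The median log2 ratio of the 10 carriers was 0.18, and the highest was 2.88. The plasma carrier and the cellular carrier rbp7 lay under 5 RPKM in the surface eye and entered the tables by their values in the cave eye, so both had to be higher there. Among the 8 carriers with 5 RPKM or more in both eyes, crabp1a alone was past 2-fold, and the median log2 ratio was 0.03. Of all 7719 rows with 5 RPKM or more in both eyes, 2.32% were 2-fold higher and 8.77% were 2-fold lower. The median log2 ratio of those rows was -0.24. With log2 ratios centred on the median of all rows, 3 carriers were 2-fold higher and none was 2-fold lower, against 6.71% and 5.55% of all rows. These 3 were crabp1a and the carriers whose direction the filter fixed, rbp4 and rbp7. Of the 7719 rows with 5 RPKM or more in both eyes, 349 were 2-fold higher and 355 were 2-fold lower when centred. Together the 10 rows summed to 446.4 RPKM in the surface eye and 510.8 RPKM in the cave eye. Without the plasma carrier the sums were 443.1 and 480.4 RPKM.

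**Figure D1:**
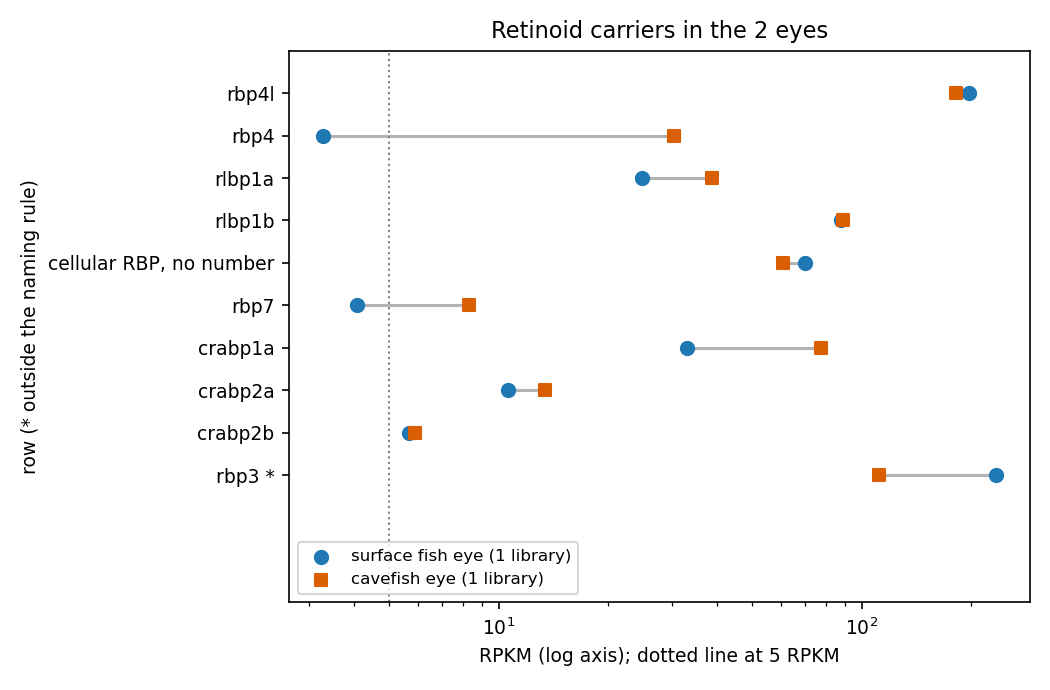
RPKM on a log axis of each retinoid carrier in the surface eye (circles) and the cavefish eye (squares), 1 library each, with 9 rows of the naming rule ordered by role and rbp3, marked with an asterisk, below them. The photoreceptor carrier rbp4l is the highest of the 9 in both eyes, and the widest gap is that of the plasma carrier rbp4, from 3.28 to 30.4 RPKM.

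The secreted carriers differed from each other in level and in ratio. The row named retinol binding protein 4, like (rbp4l) corresponds to purpurin, which photoreceptors secrete in zebrafish and goldfish. It stood at 197.4 RPKM in the surface eye and 181.4 RPKM in the cave eye, a log2 ratio of -0.12, and was the most abundant of the 10 carriers in both. It made up 44.2% of their summed RPKM in the surface eye and 35.5% in the cave eye. Its sign depended on the scale: with each of the 4 other scalings the log2 ratio was positive, from 0.14 to 0.16. Its rank by abundance among all rows was 213 in the surface eye and 181 in the cave eye.

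The interphotoreceptor retinoid-binding protein, which photoreceptors secrete into the space between them and the pigment epithelium, stood at 234.6 RPKM in the surface eye and 111.6 RPKM in the cave eye. It was thus the more abundant of the photoreceptor carriers in the surface eye, at 1.19 times the RPKM of rbp4l, and the less abundant in the cave eye, at 0.616 times. This exchange of order holds under any scaling by a common factor. The log2 ratio of rbp3 was -1.06 and came to between -0.78 and -0.80 with the 4 other scalings, under 2-fold. The difference between the log2 ratios of rbp3 and rbp4l was -0.94.

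Photoreceptor genes outside the carriers were mostly lower in the cave eye. Of 27 measured photoreceptor genes, 23 were lower by 2-fold and none was 2-fold higher, with a median log2 ratio of -1.34, against 10.1% of all rows 2-fold lower. With the 4 other scalings 14 or 15 of them were 2-fold lower and the median was -1.02 to -1.08. Among all 9649 rows, 536 to 563 were 2-fold lower with those scalings, or 5.55% when centred on the median. Of these 27 genes, 26 had a lower log2 ratio than rbp4l, and 20 had a lower one than rbp3. The exception above rbp4l was nrl, a transcription factor of rods, at 20.4 and 25.4 RPKM (0.31). As a ratio within each eye, rbp4l stood at 0.0135 of the RPKM of rhodopsin in the surface eye and 0.0371 in the cave eye. Against the cone transducin gene gnat2, it stood at 0.468 and 1.44. In bulk tissue, fewer photoreceptors and less RNA per photoreceptor cannot be told apart.

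Plasma retinol binding protein (rbp4) carries retinol in blood and is made chiefly by the liver, with the pigment epithelium as a further source in mammals. It stood at 3.28 RPKM in the surface eye and 30.4 RPKM in the cave eye, a 9.27-fold difference and a log2 ratio of 2.88, the largest of the 10 carriers. This ratio was above that of 99.8% of all rows. Among the 620 rows with under 5 RPKM in the surface eye, it ranked 19 from the top. Its rank by abundance was 9438 in the surface eye and 1480 in the cave eye. With the 4 other scalings the log2 ratio lay between 3.11 and 3.15, and it was 2.10 with a pseudocount of 5 and 3.17 with one of 0.1.

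Of 30 listed liver and plasma protein genes, 12 were measured, and 10 of these, like rbp4, were under 5 RPKM in the surface eye. Those 10 had to be higher in the cave eye, so their direction was fixed by the filter. Of the 12, 11 were at least 2-fold higher in the cave eye and none was lower. Among all rows 3.83% were 2-fold higher, and among the 620 rows under 5 RPKM in the surface eye 30.8% were. The summed level of the 12 was 67.4 RPKM in the surface eye and 466.4 RPKM in the cave eye, 6.92 times as much. The list's median log2 ratio was 3.27, and rbp4 lay within it, above 5 genes and below 7. With a pseudocount of 5 the median was 1.65 and 8 genes were 2-fold higher, and with one of 0.1 the median was 4.12. Transferrin-a, the iron carrier of plasma, stood at 4.63 and 118.6 RPKM. The fibrinogen beta chain gene fgb, of blood clotting, stood at 2.98 and 44.6 RPKM. The exception was vitronectin b, an adhesion protein of plasma and matrix, at 17.9 and 18.1 RPKM. Vitronectin b and the complement gene c3a.1, at 27.6 and 66.6 RPKM (1.24), had 5 RPKM or more in both eyes and were free to go either way. Outside this list, the row fatty acid binding protein 1a, liver (fabp1a) was lower, at 40.7 RPKM in the surface eye and 23.0 RPKM in the cave eye (-0.80). The part of liver transcripts in the rbp4 value was not tested. The receptor gene stra6, whose protein takes retinol from the plasma carrier into pigment epithelium cells, stood at 18.1 RPKM in the surface eye and 11.2 RPKM in the cave eye (-0.65). Rbp4 was thus at 0.181 of the stra6 level in the surface eye and 2.73 times it in the cave eye. The direction of this ratio was fixed by the filter, as rbp4 had to be higher in the cave eye and stra6 was lower there. Against c3a.1 rbp4 also rose, from 0.119 in the surface eye to 0.456 in the cave eye. Against transferrin-a it went the other way, from 0.708 to 0.256.

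**Figure D2:**
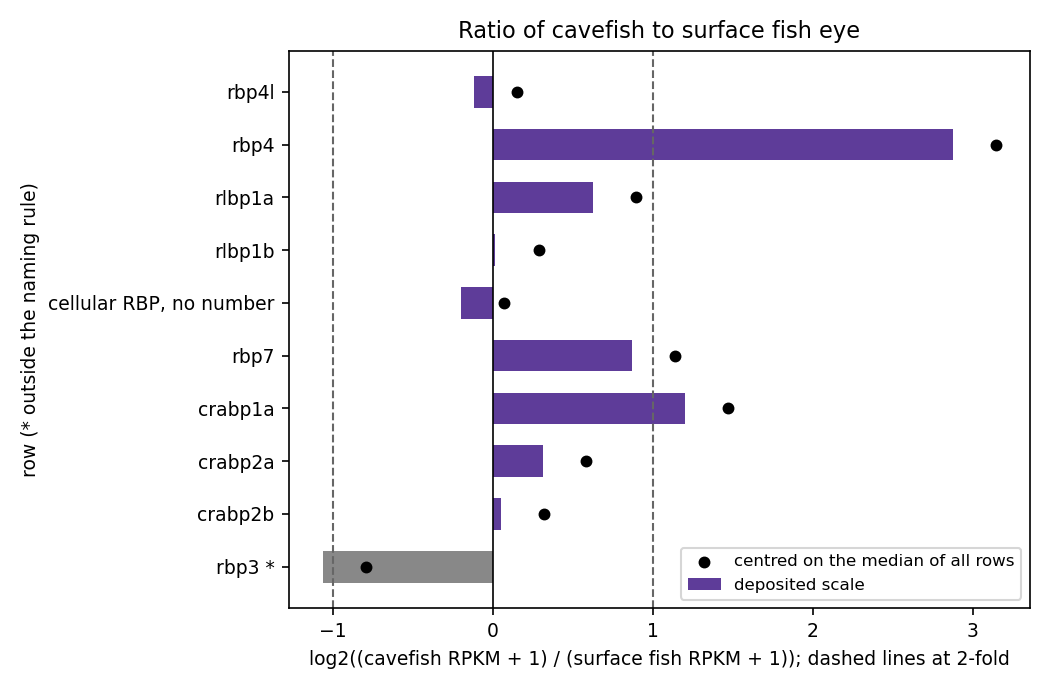
Log2 ratio of cavefish over surface fish RPKM, each plus 1, for 9 carriers and rbp3 (asterisk, grey bar). Bars are on the deposited scale, points are centred on the median of all rows, and dashed lines mark 2-fold. Bars for rbp4 (2.88) and crabp1a (1.20) pass 2-fold upward, the bar of rbp3 (-1.06) passes it downward but its point does not, and the point of rbp7 passes it upward while its bar (0.87) does not.

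The carriers of retinal inside cells, the copy of the pigment epithelium and the copy of Mueller glia, were both within 2-fold. Both are forms of CRALBP, which holds the retinal and retinol isomers made in the visual cycle. The Mueller glia copy rlbp1b stood at 87.8 RPKM in the surface eye and 88.7 RPKM in the cave eye, a log2 ratio of 0.01. The pigment epithelium copy rlbp1a was less abundant in both eyes, at 24.8 RPKM in the surface eye and 38.8 RPKM in the cave eye, a log2 ratio of 0.62. With the 4 other scalings rlbp1a came to between 0.89 and 0.94 and rlbp1b to between 0.28 and 0.31. The log2 ratio of rlbp1a exceeded that of rlbp1b by 0.61, a gap under 2-fold. Within each eye, rlbp1b was thus 3.54 times as abundant as rlbp1a in the surface eye and 2.29 times as abundant in the cave eye.

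Mueller glia genes lay on both sides. Of 16 measured genes, 1 was higher and 3 were lower by 2-fold. Among all rows 3.83% were higher and 10.1% lower, or 6.71% and 5.55% when centred. The list's median log2 ratio was 0.04, and rlbp1b lay in the middle, above 8 and below 8. The balance of these counts depended on the scale: with each of the 4 other scalings 4 were higher and 2 were lower, and the median was 0.30 to 0.32. The genes that then joined the higher ones were clu, gfap and sox9a. The list summed to 995.0 RPKM in the surface eye and 922.0 RPKM in the cave eye. The 2-fold higher gene was her6, a Notch-responsive repressor, at 9.82 and 23.0 RPKM. The 2-fold lower genes were the glutamate transporter gene slc1a2a, at 34.0 and 9.51 RPKM (-1.74), the glutamine synthase gene glulb, at 26.9 and 10.47 RPKM (-1.28), and cahz, a carbonic anhydrase gene, at 133.4 and 59.8 RPKM (-1.14). Cahz came under 2-fold with the 4 other scalings, at -0.84 to -0.88. As a ratio within each eye, rlbp1b stood at 0.772 of the RPKM of the glutamine synthase gene glula in the surface eye and 1.22 times it in the cave eye. Against vimentin, an intermediate filament gene of glia and many other cells, it stood at 0.678 and 0.723.

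Pigment epithelium and melanin genes had a median log2 ratio of -0.23 over 14 measured genes, with 1 gene 2-fold higher and 1 gene 2-fold lower. Among all rows 3.83% were higher and 10.1% lower, or 6.71% and 5.55% when centred. With each of the 4 other scalings the list's median turned positive, at 0.03 to 0.05. Under them 2 genes were 2-fold higher (pmelb and tyr) and none was lower. Tyr, at 4.77 and 9.46 RPKM, was under 5 RPKM in the surface eye and so had to be higher in the cave eye. Another gene of the list, best1 (-0.79), was under 5 RPKM in the cave eye and had to be lower there. On this list rlbp1a lay above 11 genes and below 3, the melanin genes pmelb, tyr and tyrp1a (0.66). Other melanin genes lay on both sides. Dct (0.35), gpr143 (0.48) and pmela (0.16) were higher in the cave eye, and tyrp1b (-0.35) and slc24a5 (-0.56) were lower. On the deposited scale the genes of the list outside melanin, rpe65a, rgra (-0.50), rgrb (-0.53), best1, bsg (-0.23) and rdh5, were all lower. Rpe65a and bsg turned positive with the 4 other scalings. The 2-fold higher gene was the premelanosome gene pmelb, at 10.8 and 28.5 RPKM (1.33). The list summed to 740.6 RPKM in the surface eye and 664.2 RPKM in the cave eye. The isomerase gene rpe65a, which makes the retinol isomer that CRALBP binds, stood at 207.6 and 176.9 RPKM (-0.23), and at 0.03 to 0.04 on the log2 scale with the 4 other scalings. Within each eye, rpe65a was 8.37 times as abundant as rlbp1a in the surface eye and 4.56 times in the cave eye. The gene for the dehydrogenase rdh5, which oxidizes the retinol bound to CRALBP, stood at 15.3 and 7.14 RPKM. Its log2 ratio of -1.002 was just past 2-fold and came under it with the 4 other scalings, at -0.73 to -0.76.

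Set side by side, the carriers of the 3 cell types are ordered as follows by their log2 ratios. The cell types were assigned from outside these data, and expression in further cell types cannot be told from whole eyes. The photoreceptor carrier rbp3 had the lowest log2 ratio, -1.06, followed by the photoreceptor carrier rbp4l at -0.12, the glial rlbp1b at 0.01 and the pigment epithelium carrier rlbp1a at 0.62. Of the 6 pairs among them, 2 differed by 2-fold or more: the log2 ratio of rbp3 minus that of rlbp1b was -1.08, and minus that of rlbp1a it was -1.69. The log2 ratio of rbp4l minus that of rlbp1b was -0.14, and minus that of rlbp1a it was -0.75. Rbp4l and rbp3 are both assigned to photoreceptors, and the difference between them (-0.94) was larger than that between rbp4l and either retinal carrier. No test of these differences was possible with 1 library per species.

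**Figure D3:**
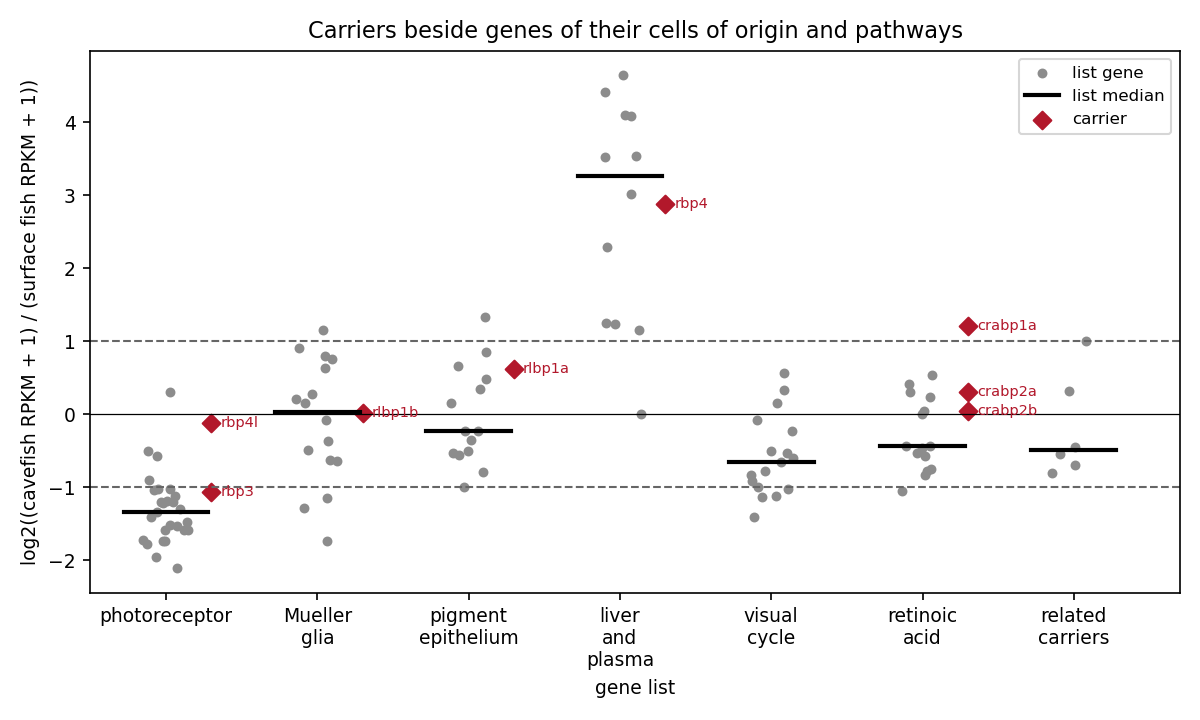
Log2 ratio of cavefish over surface fish RPKM, each plus 1, for the genes of 7 lists (grey points) with the median of each list (black line). Retinoid carriers are red diamonds beside the list of their cell type or pathway, and dashed lines mark 2-fold. The carrier rbp4l lies above 26 of 27 photoreceptor genes, rlbp1b lies at the Mueller glia median, and rbp4 lies within the liver and plasma genes.

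The retinol carriers inside cells described here, 2 in number, were within 2-fold on the deposited scale. These small proteins bring retinol to the enzymes that store or oxidize it. The most abundant row is named retinol binding protein cellular, without a number, and its paralog was not assigned. It stood at 69.97 RPKM in the surface eye and 60.8 RPKM in the cave eye, a log2 ratio of -0.20 that turned positive with the 4 other scalings, from 0.06 to 0.12. Retinol binding protein 7 (rbp7) had 4.08 and 8.27 RPKM, a 2.03-fold difference of the RPKM values but a log2 ratio of 0.87 with the added 1. It passed 2-fold with each of the 4 other scalings, at 1.08 to 1.14. Its ratio was exceeded by 37.7% of the rows that, like it, are under 5 RPKM in the surface eye.

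The retinoic acid binding proteins were higher in the cave eye as a sum, at 49.3 RPKM in the surface eye and 96.6 RPKM in the cave eye, and crabp1a made up most of the difference. Crabp1a, whose mammalian counterpart marks a subset of amacrine cells in the retina, stood at 33.0 RPKM in the surface eye and 77.3 RPKM in the cave eye. This is a 2.34-fold difference and a log2 ratio of 1.20, above that of 97.5% of all rows. With the 4 other scalings its log2 ratio was 1.47 to 1.51. Its rank by abundance was 1717 in the surface eye and 519 in the cave eye. Crabp2a stood at 10.6 and 13.4 RPKM (0.31) and crabp2b at 5.66 and 5.88 RPKM (0.05), both within 2-fold. Crabp1a was 3.11 times as abundant as crabp2a in the surface eye and 5.76 times in the cave eye.

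Genes that make and sense retinoic acid, listed together with nuclear receptor cofactors, differed less than crabp1a. Of 15 measured genes for its synthesis, receptors and cofactors, 1 (6.67%) was 2-fold lower and none was higher. Among all rows 10.1% were lower and 3.83% higher, so these counts are near those of any rows. The list's median log2 ratio was -0.44, and crabp1a lay above all 15. Crabp2a lay above 13 of them and below 2, and crabp2b above 10 and below 5. Receptor genes lay on both sides, with raraa (0.24), rarab (0.05) and rxraa (0.42) higher in the cave eye. Lower there were rarga (-0.58), rxrbb (-0.44) and rxrba. The synthesis gene aldh1a2 stood at 6.77 and 8.56 RPKM (0.30). A row outside the list, aldehyde dehydrogenase family subfamily a2, stood at 7.72 and 3.93 RPKM (-0.82). Its name gives no family number, so whether it belongs to the same gene was not settled. The retinoid X receptor gene rxrba was the most abundant of the list, at 128.6 and 93.2 RPKM (-0.46). The coactivator genes ncoa3, at 82.9 and 39.5 RPKM (-1.05), and ncoa1, at 75.1 and 41.5 RPKM (-0.84), followed. Ncoa3, the gene past 2-fold, came under it with the 4 other scalings, at -0.74 to -0.79.

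The visual cycle list holds the enzymes and transporters that exchange retinoids with these carriers. Of its 17 measured genes, 5 were 2-fold lower and none was higher, against 10.1% and 3.83% of all rows. Its median log2 ratio was -0.65. When centred on the median of all rows, 1 of the 17 was 2-fold lower, against 5.55% of all rows. The row retinol dehydrogenase 8 like, of a photoreceptor enzyme family that reduces retinal, stood at 29.5 and 10.54 RPKM (-1.40) and alone among the 5 was past 2-fold with every other scaling. Retinol dehydrogenase 8 stood at 135.8 and 66.5 RPKM (-1.02). The photoreceptor retinoid transporter row of the ABCA4 type without a paralog letter stood at 18.2 and 7.87 RPKM (-1.11), whereas the more abundant copy abca4a was within 2-fold, with 74.8 RPKM in the surface eye and 83.0 RPKM in the cave eye (0.15). Retinol saturase (retsat) stood at 6.13 and 2.25 RPKM (-1.13). The fifth was rdh5, given above. The opsin relative rgrb of pigment epithelium and Mueller glia stood at 117.9 and 81.5 RPKM (-0.53). Of the 17 genes, 3 were under 5 RPKM in the cave eye and so had to be lower there (retsat, rdh12 and rdh10b), and 1 was under 5 RPKM in the surface eye (dhrs3b).

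The carriers of related fold, fatty acid binding proteins and lipocalins, give a comparison within the protein families of part of the carriers. The retinal carriers rlbp1a and rlbp1b, and rbp3, belong to neither family. Of 6 measured genes none was past 2-fold, against 3.83% of all rows higher and 10.1% lower. The list's median log2 ratio was -0.49. The lipocalin gene for prostaglandin D2 synthase was the most abundant, at 450.0 and 309.7 RPKM (-0.54). The fatty acid binding protein gene fabp11a stood at 89.2 and 178.8 RPKM (0.996), just under 2-fold, and passed it with the other scalings, at 1.26 to 1.27. The muscle and heart form fabp3 stood at 70.2 and 42.9 RPKM (-0.70). Crabp1a lay above all 6.

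**Figure D4:**
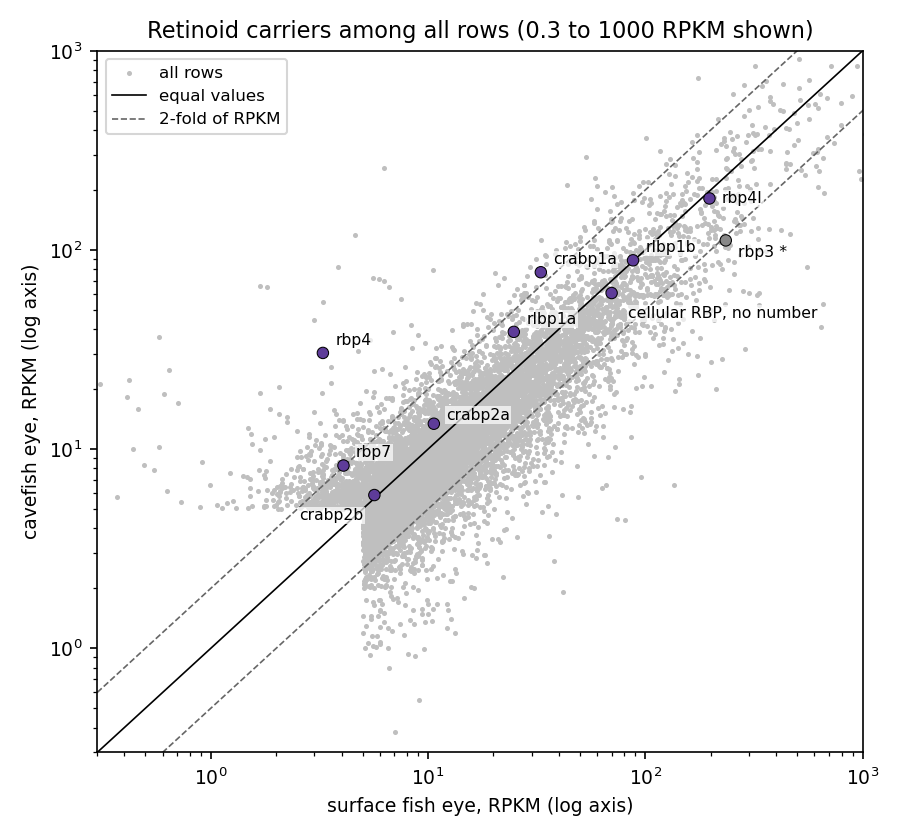
RPKM in the cave eye against RPKM in the surface eye, both on log axes, for all rows between 0.3 and 1000 RPKM (grey) with 9 retinoid carriers (purple) and rbp3 (grey with an outline, asterisk). The solid line marks equal values and dashed lines 2-fold of RPKM. The empty lower left corner shows that every row reaches 5 RPKM in at least 1 eye, and rbp4 and rbp7 lie left of that value.

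The rows nearest to a carrier in both eyes were found by distance over log2(RPKM + 1), with 2 values per row. Nearest to crabp1a were collagen type II alpha-1a, at 32.4 and 77.9 RPKM, crystallin gamma M2f, at 32.1 and 80.0 RPKM, and the voltage-gated sodium channel type III beta subunit, at 34.5 and 74.8 RPKM. Only 7 rows lay within 0.25 of crabp1a, against 18 for rbp4l, 48 for rlbp1b and 65 for the cellular carrier without a number. The rows nearest to rbp4l were the GABA(A) receptor-associated protein, the SUMO-family row SMT3 homolog 3a and the U1 small nuclear ribonucleoprotein 70. Those nearest to rlbp1b were acetyl-Coenzyme A carboxylase alpha, ribosomal protein L13a and twisted gastrulation homolog 1a. The rows nearest to the carrier without a number were serine/arginine repetitive matrix 2, a cytochrome c oxidase subunit 4 row and spectrin beta brain 1.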

How the data were processed

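Per the labels' protocols, RNA of whole adult eyes was isolated with TRIzol, selected with oligo(dT) and sequenced as paired ends on Illumina instruments. The authors deposited RPKM values, per the file headers, in 1 table per eye with the same 9649 row names. The submitters' processing notes name Bowtie 0.12.2. The reference, the transcript lengths and the handling of reads shared by duplicate genes were not stated in those sources. Carp-family fish of this genus carry duplicated genomes, so the division of reads between copies can affect each paralog value. The depth is unknown, and no interval was computed. No row was at 0.

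From the RPKM, log2((cavefish + 1) / (surface fish + 1)) was computed for every row. No test was made with 1 library per group. Lists used zebrafish symbols matched by descriptive name, and where several rows carried one gene, that with the largest summed RPKM was taken. The 10 carriers and all lists were chosen with earlier results of these data known. Of the 10 carriers, 1 enters the counts, median and sums but is not reported here singly. Named were the other 9, rbp3, and of each of the 3 pathway lists (visual cycle, retinoic acid, related carriers) the genes past 2-fold and the 3 with the largest sums, plus the 3 rows nearest to the most abundant carrier of each role. Nrl, gnat2, rhodopsin, vimentin, her6, slc1a2a, glula, glulb, cahz, clu, gfap, sox9a, pmelb, tyr, abca4a, rdh12, rdh10b, dhrs3b, stra6, aldh1a2, transferrin-a, fgb, vitronectin b, c3a.1, fabp1a and aldolase b were named after their values were seen. So were rgra, best1, bsg, tyrp1a, tyrp1b, dct, gpr143, pmela, slc24a5, raraa, rarab, rarga, rxraa, rxrbb and the row aldehyde dehydrogenase family subfamily a2. The 4 other scalings were centring on the median, a mean of log2 ratios with 30% trimmed from each end, equal totals without the 50 most abundant rows of either library, and quantile normalization. Other alternatives were pseudocounts of 0.1 and 5, a minimum of 10 RPKM in either eye, a threshold of 4-fold and summed rows of the same name. The computation was tested on simulated data. Python 3.11.15, numpy 2.4.6, pandas 2.3.3 and matplotlib 3.10.9 were used. The brain libraries were not analysed here.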

Additional observations from a re-analysis of the deposited data

How the results depend on the processing

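With 1 library per species no replicate could be left out, the depth is unknown, and no spread was available against which to judge a shift, so a value was compared with the 2-fold threshold alone. No paired analysis was possible because each group holds 1 library. The 2 carriers 2-fold higher, rbp4 and crabp1a, stayed past 2-fold under both other pseudocounts and all 4 scalings. At 4-fold 1 carrier was higher. Alternatives chosen after seeing the data left 1 carrier 2-fold higher with rows at 5 RPKM or more in both eyes, and 1 lower with the interphotoreceptor row counted. Counts of the lists moved more. With each of the first 3 other scalings, 15 photoreceptor genes were lower, and 14 with quantile normalization. With all 4, Mueller glia genes came to 4 higher and 2 lower, pigment epithelium genes to 2 higher and 0 lower, visual cycle genes to 1 lower, retinoic acid genes to 0 lower and related carriers to 1 higher, as the median of all rows moved up. The liver and plasma list had 8 genes 2-fold higher with a pseudocount of 5 and with a minimum of 10 RPKM. A pseudocount of 5 gave 0 higher for Mueller glia, 0 lower for pigment epithelium, 1 lower for the visual cycle and 0 lower for retinoic acid, and one of 0.1 gave 1 higher related carrier. At 4-fold, 1 photoreceptor gene was lower, and Mueller glia, pigment epithelium, visual cycle and retinoic acid lists had 0 in each direction.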
